A study of Mus musculus with 15 samples.

Results

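The nuclear genes for the subunits of the mitochondrial oxidative phosphorylation complexes were examined in sorted mouse islet cells. They were chosen by symbol alone, as every gene of the deposited table named in the Nduf (a, b, c, s and v), Sdha to Sdhd, Uqcr, Cox4 to Cox8 or Atp5 series, and 85 of the 38283 genes in the table met this rule. By the complex they are known to belong to, 35 fell in complex I, 4 in complex II, 8 in complex III, 20 in complex IV and 16 in complex V. The remaining 2, Atp5s and Atp5sl, carry an ATP synthase name but are not structural subunits, and Atp5l2 is annotated as a processed pseudogene.

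RNA was sequenced from purified alpha cells (n = 5), beta cells (n = 4) and delta cells (n = 6) of mouse islets, to compare the transcriptomes of the 3 cell types. Alpha and beta cells came from Glu-Venus mice, in which the proglucagon promoter drives the fluorescent protein Venus. Alpha cells were the Venus-positive cells, whereas beta cells carried no marker of their own and were taken from the Venus-negative cells by high scatter and autofluorescence. Delta cells came from Sst-CreXROSA26EYFP/EYFP mice, in which Cre under the somatostatin promoter switches on EYFP. All mice had a C57BL/6 background, and their age was not given in the sources used here. Islets of several mice were pooled for each sample, so p-values measure the spread between such pools. Whether an alpha and a beta sample came from the same pool of Glu-Venus islets is not given in the sources used here. Cell type and mouse line cannot be told apart for delta cells.

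Oxidative phosphorylation passes electrons from NADH (complex I) and succinate (complex II) through complexes III and IV to oxygen, and complex V uses the resulting proton gradient to make ATP. Most subunits are encoded in the nucleus and the rest in mitochondrial DNA; complex II is wholly nuclear. In beta cells, ATP made in this way closes potassium channels and so couples glucose to insulin release. Some subunits of complex IV exist as a general form and a form known from heart and skeletal muscle, such as Cox6a1 and Cox6a2.

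Levels were deposited as FPKM, a read count scaled to the length of the transcript and to the mapped total of the sample. Each sample was led by the hormone markers of its labelled cell type. The summed FPKM of 4 alpha cell markers was 194894 to 363634 in alpha samples and at most 3003 elsewhere, that of 4 beta cell markers 118227 to 776272 in beta samples and at most 12687 elsewhere, and that of 4 delta cell markers 102594 to 267813 in delta samples and at most 3346 elsewhere. Summed markers of acinar cells reached 22.2 FPKM in alpha, 6.91 in beta and 101.5 in delta samples, with Amy2a5 at 0 throughout; those of duct, endothelial, macrophage and stromal cells were at most 4.27 FPKM in any sample. The labels do not name a further division of the samples, which 85 ribosomal protein genes showed. Their FPKM added up to a value above 50000 in 6 samples (alpha 1 to 3, beta 2, and delta 1 and 2) and below it in the other 9. Sequencing depth could be recovered from the values in 6 samples only: 7600000 to 10800000 reads in 3 samples of the higher set and 25400000 to 30800000 in 3 of the lower set.

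The subunit genes were detected in all 3 cell types. A mean above 1 FPKM in at least 1 cell type, the condition for testing, was met by 78 of the 85. The highest mean level was that of Atp5b, the catalytic beta subunit of ATP synthase, at 1344 ± 314 FPKM for alpha, 997 ± 443 for beta and 1186 ± 244 for delta cells (mean ± SD). It was followed by Atp5e (epsilon subunit of ATP synthase), Cox4i1 (the general form of complex IV subunit 4), Uqcrh (the hinge protein of complex III) and Cox7b (complex IV), whose averages over the 3 cell types were 864, 570, 437 and 436 FPKM. The other 7 genes were at or near 0. Cox8c was listed at 0 in all samples, Cox4i2 and Ndufa4l2 were above 0 in 1 sample each (0.182 FPKM in alpha 5 and 0.591 FPKM in delta 5), and Cox6b2, Cox7b2, Cox8b and Atp5l2 reached at most 1.65 FPKM. These are mostly paralogs known from single tissues such as lung, testis or muscle. The FPKM of every gene summed by complex put complex V first in all samples but beta 1 and 2, where complex I was first. Complex V held 35.0% ± 3.45 of the total in alpha, 33.5% ± 5.58 in beta and 34.2% ± 3.10 in delta cells (mean ± SD).

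Before cell types were compared, the spread within them was examined, and it was wider for the subunit genes than for genes in general. Summed over all 85 genes, the level was 14498, 30477, 25681, 6801 and 10139 FPKM in alpha 1 to 5, and 4418, 25523, 4372 and 7087 FPKM in beta 1 to 4. In delta cells the sum ranged from 5701 to 19277 FPKM, with the 2 highest values in delta 1 and 2. The sums of the 3 cell types therefore overlapped, and within each type the samples with the higher ribosomal protein sum had the higher subunit sum.

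**Figure D1:**
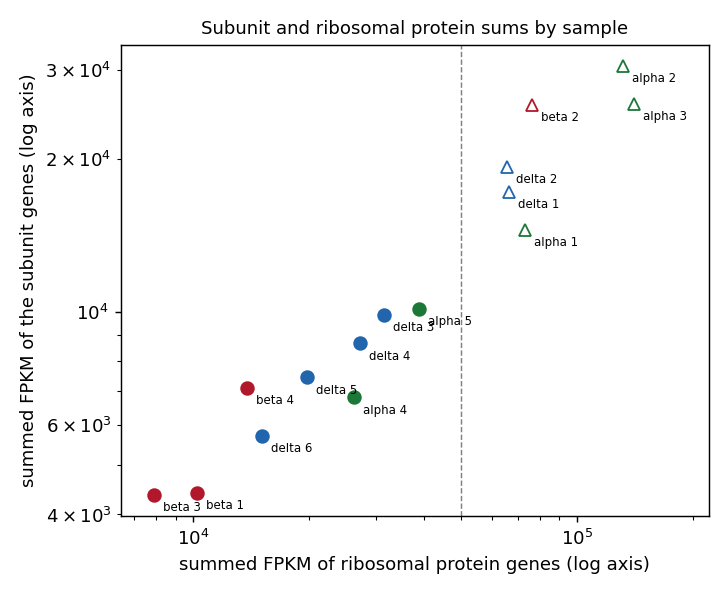
Summed FPKM of the 85 subunit genes (vertical, log axis) against the summed FPKM of ribosomal protein genes (horizontal, log axis), 1 point per sample; green marks alpha, red beta and blue delta cells, open triangles the 6 samples above 50000 FPKM (dashed line) and filled circles the other 9. The open triangles lie between 14498 and 30477 FPKM and all filled circles lie at 10139 FPKM or below.

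This covariation took in nearly every member. Between samples of the higher and lower set, the median difference of mean log2(FPKM + 1) over the 78 tested genes was 1.45 in alpha, 2.47 in beta and 1.28 in delta cells, beside 0.02, 0.74 and 0.08 over all 14405 tested genes. The level was higher in the higher set for 76 of 78 members in alpha cells and for 78 in both beta and delta cells. The exceptions in alpha cells were Cox6a2 (difference -1.48) and Ndufa12 (-0.22), an accessory subunit of complex I. Averaged over the cell types, the difference was smallest for Sdha (0.36), the flavoprotein of complex II, and Atp5b (0.41), and largest for Ndufc1 (2.53) and Ndufa4 (2.53), small subunits of complexes I and IV. The median SD within cell types was 1.02 on the log2 scale for the members and 0.73 for all tested genes, and 0.56 and 0.62 once the set was a term of the fit. RNA quality of single samples was not given in the sources used here. The part of the set, of depth and of RNA quality in this spread was not tested. In such bulk samples, a lower level in every cell and a smaller number of expressing cells cannot be told apart.

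**Figure D2:**
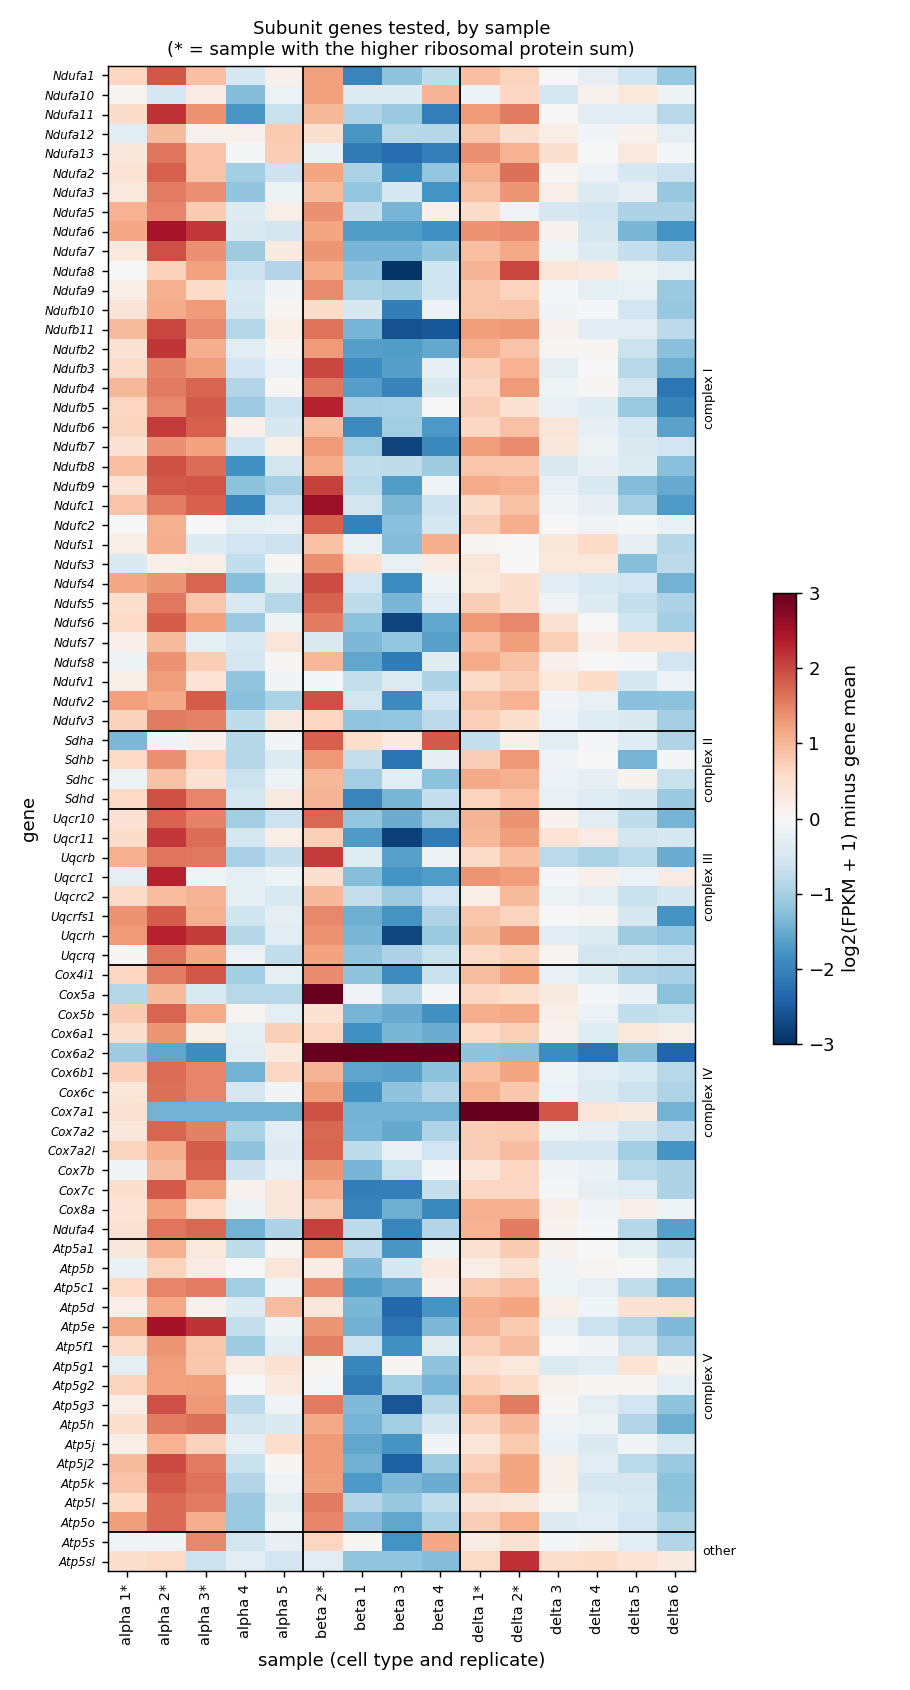
Level of the tested genes, all but 1 of the 78 (rows, grouped by complex), in each of the 15 samples (columns), as log2(FPKM + 1) minus the mean of that gene over all samples; red is above and blue below the mean, colours are clipped at -3 and 3, and asterisks mark the 6 samples of the higher ribosomal protein set. Columns with an asterisk are mostly red throughout, while the rows of Cox6a2 and Sdha are red in beta cells instead.

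The sequence around the start sites, which the choice by symbol did not use, was searched for motifs of factors known to act on such genes. Each motif was found in a minority of the members. RefSeq promoter windows, from 250 bases before to 50 bases after an annotated start (GRCm38.p6), were at hand for 67 of the 85 genes. The letters GCGCNNGCGC, the core of the motif of NRF-1 (nuclear respiratory factor 1), occurred in 18 of the 67 (26.9%), beside 1891 of 27025 genes (7.0%). CCGGAAG or its reverse complement CTTCCGG, the core of the ETS motif read by the GABP factor, occurred in 16 (23.9%), beside 2683 genes (9.93%), and both strands were searched. The members' windows had a median GC content of 57.0% and those of all genes 52.8%, and the part of GC content in these shares was not tested. Of the genes with windows, 4 are shown because the results below turn on them: Sdha (chr13:74350191-74350490, minus strand) and Cox6a1 (chr5:115348909-115349208, minus strand), each with 3 matches, Atp5g2 (chr15:102670998-102671297, minus strand) with 1, and Ndufa13 (chr8:69901971-69902270, minus strand) with none. Each is written 5′ to 3′ on the strand of the gene, and capitals mark the matches.
Sdha: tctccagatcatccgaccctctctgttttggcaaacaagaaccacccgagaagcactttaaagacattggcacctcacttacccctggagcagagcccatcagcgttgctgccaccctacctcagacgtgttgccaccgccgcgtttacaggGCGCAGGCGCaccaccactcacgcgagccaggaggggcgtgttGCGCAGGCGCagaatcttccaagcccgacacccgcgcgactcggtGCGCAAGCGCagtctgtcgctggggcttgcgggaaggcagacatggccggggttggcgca
Cox6a1: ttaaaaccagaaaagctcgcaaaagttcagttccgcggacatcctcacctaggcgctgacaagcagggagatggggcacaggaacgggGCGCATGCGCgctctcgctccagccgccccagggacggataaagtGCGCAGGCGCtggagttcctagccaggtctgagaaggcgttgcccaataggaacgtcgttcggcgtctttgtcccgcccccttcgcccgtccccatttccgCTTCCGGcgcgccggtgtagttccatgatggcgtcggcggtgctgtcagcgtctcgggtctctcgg
Atp5g2: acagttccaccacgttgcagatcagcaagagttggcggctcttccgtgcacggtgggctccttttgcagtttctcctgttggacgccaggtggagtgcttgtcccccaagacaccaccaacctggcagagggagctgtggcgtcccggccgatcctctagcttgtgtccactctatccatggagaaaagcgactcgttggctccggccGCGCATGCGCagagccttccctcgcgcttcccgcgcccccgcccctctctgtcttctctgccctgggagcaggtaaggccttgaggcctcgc
Ndufa13: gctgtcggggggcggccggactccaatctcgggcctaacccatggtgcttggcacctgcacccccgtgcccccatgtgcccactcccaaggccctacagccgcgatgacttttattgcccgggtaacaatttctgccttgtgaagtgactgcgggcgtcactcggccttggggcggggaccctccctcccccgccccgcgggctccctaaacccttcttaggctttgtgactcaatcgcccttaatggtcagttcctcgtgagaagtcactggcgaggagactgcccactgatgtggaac
The matches in Sdha begin 98, 55 and 10 bases before the start site and all read GCGCNNGCGC; in Cox6a1 the last of the 3 is CTTCCGG, and the match in Atp5g2 begins 42 bases before the start. A match only says that the letters are present. The Ndufa13 window lies inside the gene as placed by GENCODE, which begins at 69902558 on the minus strand. It therefore does not cover the sequence before that start. The Atp5g2 window also lies inside its GENCODE gene, whose outermost start is at 102672352.

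Cell types were compared with limma on log2(FPKM + 1) over all 14405 tested genes with Benjamini-Hochberg adjustment, and a gene was called at an adjusted p under 0.05. A difference below is one of mean log2(FPKM + 1), which understates the change of low genes. In beta against alpha cells 4 of 78 members were called (5.13%; 7.66% of all tested genes), and 25 had an unadjusted p under 0.05 (22.9% of all tested genes). Cox6a2 and Sdha were higher in beta cells (2 members; 2.84% of all tested genes), and Ndufa13 and Atp5g2 were lower (2 members; 4.82%). In delta against alpha cells no member was called by limma (6.81% of all tested genes; 5.33% higher and 1.48% lower in delta cells), and 2, Atp5sl and Cox7a1, had an unadjusted p under 0.05 (16.7% of all tested genes). In delta against beta cells 7 of 78 were called (8.97%; 14.7% of all tested genes), and 14 had an unadjusted p under 0.05 (28.4%). Ndufa13, Atp5d, Ndufs7, Atp5sl and Atp5g2 were higher in delta cells (5 members; 11.7% of all tested genes), and Cox6a2 and Sdha were lower (2 members; 2.99%). In this fit, the shares of members called lay below those over all genes; some of the alternatives below gave the opposite order. A test of any difference among the 3 cell types called the same 7 genes (16.0% of all tested genes).

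The samples of 2 cell types did not overlap at all for few members. Beta and alpha samples were separate for the 4 called genes (8.12% of all tested genes; 3.05% with beta higher and 5.07% with beta lower). Delta and alpha samples were separate for none (6.64%; 4.97% with delta higher and 1.67% lower). Delta and beta samples were separate for 5 (14.9%): Ndufa13, Ndufs7 and Atp5sl with delta higher (12.3%), and Cox6a2 and Sdha with delta lower (2.62%). The 2 comparisons with beta cells share the 4 beta samples, so their lists are not independent of each other.

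Most members without a call lay on one side. In beta against alpha cells 70 of the 78 differences were below 0 (55.7% of all tested genes), with a median of -0.99 (all tested genes -0.13). In delta against alpha cells 65 were below 0 (40.9% of all genes), with a median of -0.50 (all genes 0.13). In delta against beta cells 15 were below 0 (36.1% of all genes), with a median of 0.56 (all genes 0.30). With the set as a term of the fit the first count was 61 and the second 42, and the second was also 42 in the lower set alone. The third was 5 without beta 2, 25 without beta 3 and 29 with median-ratio size factors. The medians moved with single samples. That of beta against alpha cells was -1.54 without beta 2 and -0.65 without beta 3, that of delta against alpha cells -0.22 without alpha 2 and -0.25 without alpha 3, and that of delta against beta cells 0.30, 1.23 and 0.27 without beta 1, 2 and 3 and 0.95 with the replicate block. Scaling the samples by median-ratio size factors brought the medians of all genes to 0.00, 0.00 and 0.02 and left those of the members at -0.76, -0.66 and 0.18. With the ribosomal protein set as a term of the fit they were -0.40, -0.03 and 0.43, and scaling each sample to its own subunit sum, which removes a common shift by construction, gave -0.05, 0.05 and 0.18, so that the sign of the delta against alpha median turned. The 95% interval of a single gene had a median half-width of 1.40, 1.26 and 1.35 in the 3 comparisons. Differences of the size of these medians were within that interval, so they were not detectable for most single genes.

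The number of differences that passed moved with single samples. Beta 2 was the only beta sample of the higher set and had the highest level among beta samples for 73 of the 78 members. Without it 29 of 78 members were called in beta against alpha cells (37.2%; 12.1% of all tested genes), 28 of them lower in beta cells, and 20 in delta against beta cells (25.6%; 18.8% of all tested genes), 19 of them higher in delta cells. Among samples of the lower set alone (2 alpha, 3 beta and 4 delta), 12, 1 and 17 members were called in beta against alpha, delta against alpha and delta against beta cells (15.4%, 1.28% and 21.8% of the members; 10.8%, 5.35% and 21.9% of all tested genes). Without beta 4 the counts were 2 and 4 in the 2 comparisons with beta cells (2.56% and 5.13% of the members; 4.85% and 10.4% of all tested genes).

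**Figure D3:**
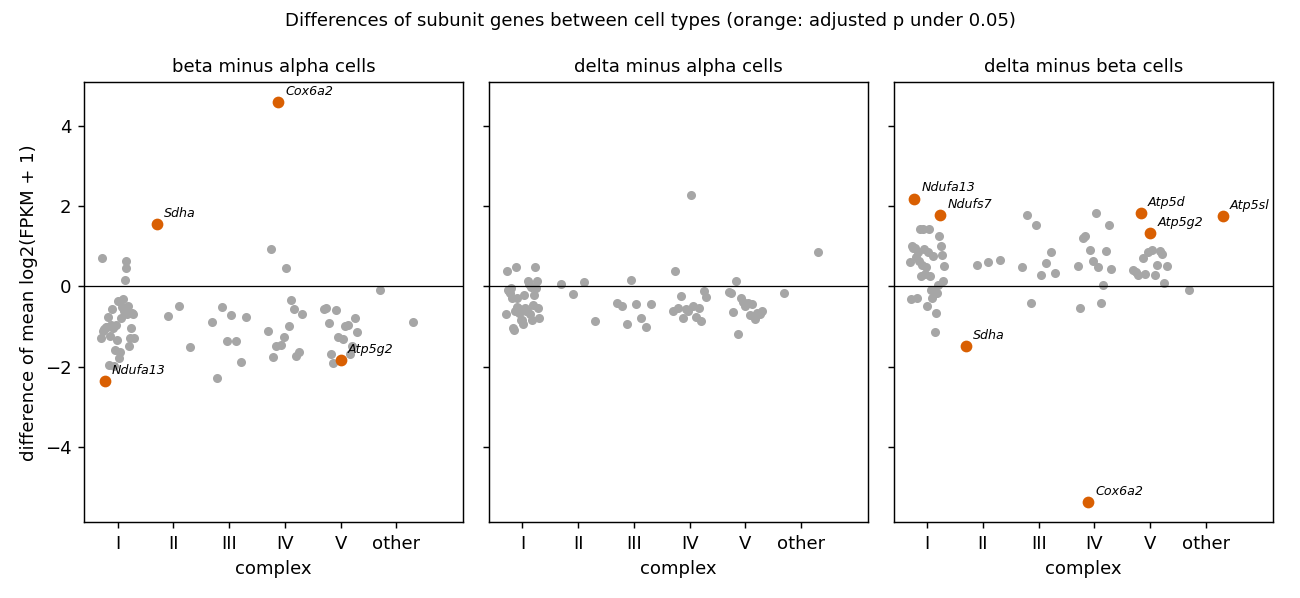
Difference of mean log2(FPKM + 1) for each of the 78 tested genes (points), by complex, in the 3 comparisons; orange points with names had an adjusted p under 0.05 and grey points did not. Grey points lie mostly below 0 in the first and second panels and above 0 in the third, and Cox6a2 stands at 4.59 in beta minus alpha and at -5.38 in delta minus beta.

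In complex I, 1 of 35 tested genes was called lower in beta than alpha cells (4.82% of all tested genes) and 2 were called higher in delta than beta cells (11.7%), none the other way. Ndufa13, an accessory subunit of the membrane arm also known as GRIM-19, lies at chr8:69894180-69902558 (GRCm38, minus strand). Its level was 65.0, 158, 93.2, 49.3 and 85.8 FPKM in alpha 1 to 5, and 11.1, 44.5, 9.69 and 11.6 FPKM in beta 1 to 4. In delta cells it ranged from 49.6 to 133 FPKM with a median of 67.6. Every beta sample was below every alpha and delta sample, and delta and alpha samples overlapped. Mean FPKM was 4.70-fold higher in alpha than beta cells (difference -2.36, SE 0.49, adjusted p = 0.00733 by limma) and 4.12-fold higher in delta than beta cells (2.19, SE 0.48, adjusted p = 0.00539 by limma). Both calls held in every alternative that was run. The gene overlaps Tssk6 and Yjefn3, and reads from the shared stretches cannot be told apart in these values.

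Ndufs7, which carries the last iron-sulphur cluster before ubiquinone, lies at chr10:80249121-80256794 (plus strand). It measured 10.9, 21.5, 12.7 and 8.79 FPKM in beta 1 to 4 and 32.7 to 70.9 FPKM (median 44.2) in delta cells. Alpha samples had 32.9, 58.1, 24.1, 21.1 and 38.1 FPKM. Beta and delta samples were separate, with delta cells 3.56-fold higher in mean FPKM (difference 1.78, SE 0.37, adjusted p = 0.00388 by limma). Against alpha cells the beta level was lower by a difference that missed the threshold (-1.29, SE 0.38, adjusted p = 0.0510 by limma), and beta 2 lay just above alpha 4. It passed with no filter, the filter of 5 FPKM, the pseudocount of 0.1, size factors, quantile normalization, the set covariate, the lower set alone and the replicate block (0.0227), and without alpha 3 or 4, beta 2, or delta 2 or 4; over all alternatives it lay between 0.0153 and 0.607.

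A few subunits of complex I did not share the lower median in beta cells. Ndufs3, a core subunit of the peripheral arm, had 51.9, 96.8, 30.7 and 42.8 FPKM in beta 1 to 4 and 21.2 to 41.9 FPKM in alpha cells, and the samples overlapped (difference 0.63, SE 0.44, adjusted p = 0.418 by limma). The differences of Ndufs1 and Ndufa10 were 0.17 and 0.70. None of these 3 passed the test, and they were named after their values were seen.

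In complex II, 1 of the 4 genes was called, higher in beta than alpha cells (2.84% of all tested genes) and higher in beta than delta cells (2.99%). Sdha, which holds the FAD and oxidises succinate, lies at chr13:74322254-74350280 (minus strand). It measured 28.6, 70.02, 81.7, 40.2 and 70.2 FPKM in alpha 1 to 5, and 106, 260.1, 90.7 and 266 FPKM in beta 1 to 4. Delta samples had 39.4 to 81.7 FPKM with a median of 57.6. Each beta sample was above each alpha and delta sample, whichever ribosomal protein set it belonged to. Mean FPKM was 3.11-fold higher in beta than alpha cells (difference 1.55, SE 0.45, adjusted p = 0.0448 by limma) and 3.08-fold higher in beta than delta cells (delta minus beta -1.48, SE 0.43, adjusted p = 0.0295 by limma). These calls were close to the threshold: leaving out 1 sample at a time ended the first for alpha 1, 2 and 4, beta 2 and 4, and delta 1, 3 and 5 (adjusted p 0.0208 to 0.129 over all 15) and the second for beta 2 and 4 and delta 1 (0.0134 to 0.0931), and with samples of the lower set alone the adjusted p was 0.142 and 0.0652. With only the compared cell types in the fit the first was also lost (0.128). The gene overlaps the predicted gene Gm16125.

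The other subunits of complex II were not called in any comparison of the main fit. With quantile normalization Sdhd was called lower in beta than alpha cells. Sdhb, the iron-sulphur subunit, had 27.7 ± 16.4 FPKM in alpha, 20.4 ± 20.3 in beta and 24.5 ± 15.02 in delta cells (mean ± SD; n = 5, 4 and 6). The membrane anchor Sdhc had 60.5 ± 26.1, 49.4 ± 39.9 and 68.9 ± 37.1 FPKM. The other anchor, Sdhd, had 141 ± 89.4, 57.9 ± 59.2 and 73.4 ± 39.1 FPKM. Their differences between beta and alpha cells were -0.73, -0.48 and -1.51, opposite in sign to that of Sdha. Sdha made up 13.3% to 32.3% of the summed FPKM of the 4 genes in alpha samples, 46.2% to 76.6% in beta samples and 14.4% to 37.3% in delta samples, so that the ranges of beta and the other cell types did not meet.

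**Figure D4:**
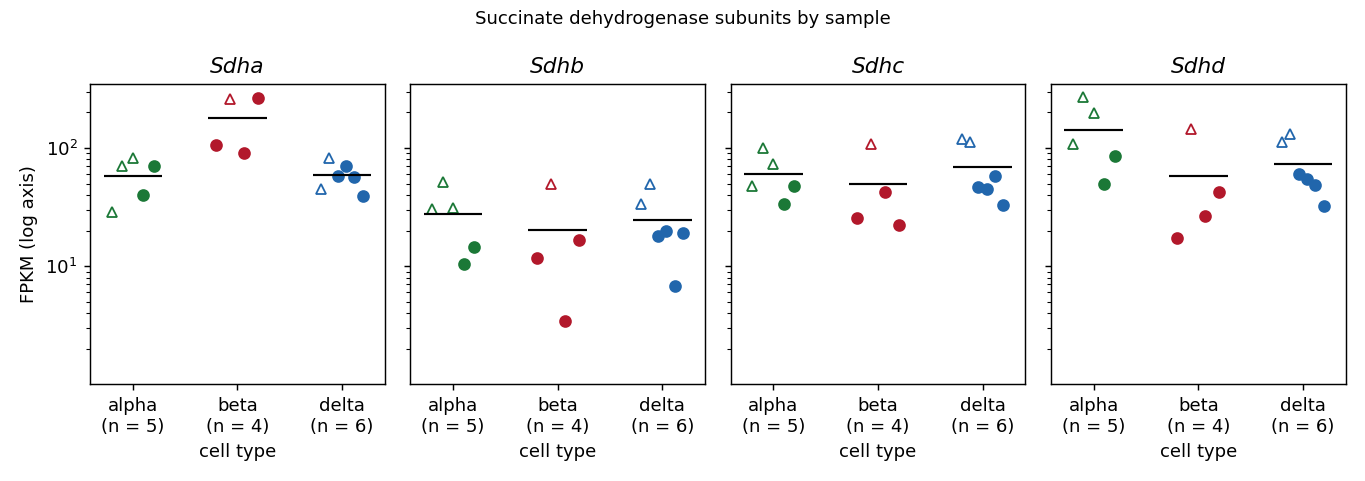
FPKM (log axis) of the 4 complex II genes in each sample by cell type; points are samples (open triangles: higher ribosomal protein set; filled circles: lower set) and lines are means. Beta samples lie at 90.7 FPKM or above for Sdha, over all alpha and delta samples, and within their range or below it for the other genes.

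In complex III none of 8 genes was called by limma in any comparison of the main fit (7.66%, 6.81% and 14.7% of all tested genes). Their differences between beta and alpha cells ran from -2.28 to -0.52 with a median of -1.13, and none was above 0. The lowest was that of Uqcr11, a small accessory subunit (-2.28, adjusted p = 0.0585 by limma). It was called lower in beta than alpha cells with the pseudocount of 0.1, size factors, quantile normalization, the set covariate, the lower set alone, the replicate block and subunit-sum scaling, and without alpha 4 or beta 2. It was called higher in delta than beta cells with quantile normalization, the set covariate, the lower set alone, the block and subunit-sum scaling, and without beta 2. Uqcrc1, a core protein of the complex, was called lower in beta than alpha cells with the lower set alone and the block and without beta 2, and higher in delta than beta cells with the set covariate, the lower set alone, the block and subunit-sum scaling, and without alpha 2 or beta 2. Uqcrh was called lower in beta than alpha cells without beta 2 (-2.64, adjusted p = 0.0443 by limma).

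Complex IV held the largest difference of any member, in an isoform gene. Cox6a2, the form of subunit 6A known from heart and skeletal muscle, lies at chr7:128205435-128206387 (minus strand). It measured 75.0, 342, 97.5 and 75.5 FPKM in beta 1 to 4. In alpha 1 to 5 it was 3.38, 2.16, 1.53, 6.36 and 10.3 FPKM, and in delta cells 0.768 to 2.99 FPKM with a median of 2.18. The lowest beta sample was far above the highest sample of the other cell types. Mean FPKM was 31.1-fold higher in beta than alpha cells (difference 4.59, SE 0.52, adjusted p = 2.77e-05 by limma) and 73.6-fold higher in beta than delta cells (delta minus beta -5.38, SE 0.50, adjusted p = 2.63e-06 by limma). Among all 14405 tested genes the first difference ranked 37 of the rises and the second 16 of the falls. Both calls held in every alternative that was run, with differences of 3.19 to 5.29 and -5.97 to -4.86. In delta against alpha cells the difference was -0.79 (SE 0.47, adjusted p = 0.455 by limma); it was called among samples of the lower set alone (-1.91, adjusted p = 0.0239). The gene overlaps Itgad, a leucocyte integrin, and macrophage markers were at most 0.469 FPKM in sum in any sample.

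The general form, Cox6a1, was expressed in all 3 cell types and was not called. It had 421 ± 178 FPKM in alpha, 181 ± 172 in beta and 343 ± 87.6 in delta cells (mean ± SD; n = 5, 4 and 6), with beta samples at 78.8, 439, 108 and 99.0 FPKM. Its beta against alpha difference was -1.49 (SE 0.51, adjusted p = 0.0850 by limma), and it was called lower in beta cells without beta 2 (-2.05, adjusted p = 0.00409) and with size factors (0.0274), quantile normalization (0.0437), the lower set alone (0.0206) and the replicate block (0.0448). Against delta cells it was called lower in beta cells without beta 2 (adjusted p = 0.00416) and with quantile normalization (0.0125), the set covariate (0.031) and the lower set alone (0.00812). Cox6a2 made up 48.8%, 43.8%, 47.5% and 43.3% of the summed FPKM of the pair in beta 1 to 4. Its share was 0.308% to 2.67% in alpha samples and 0.244% to 0.804% in delta samples. The share in beta 2 lay among those of the other beta samples, although both genes were at their highest there. The mean share was 44.5 percentage points higher in beta than alpha cells (two-sided exact permutation p = 0.0159) and 45.3 points lower in delta than beta cells (exact permutation p = 0.00952). Each is the smallest p that these sample numbers allow, and after adjustment over the 24 isoform comparisons both were 0.190, so none passed.

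**Figure D5:**
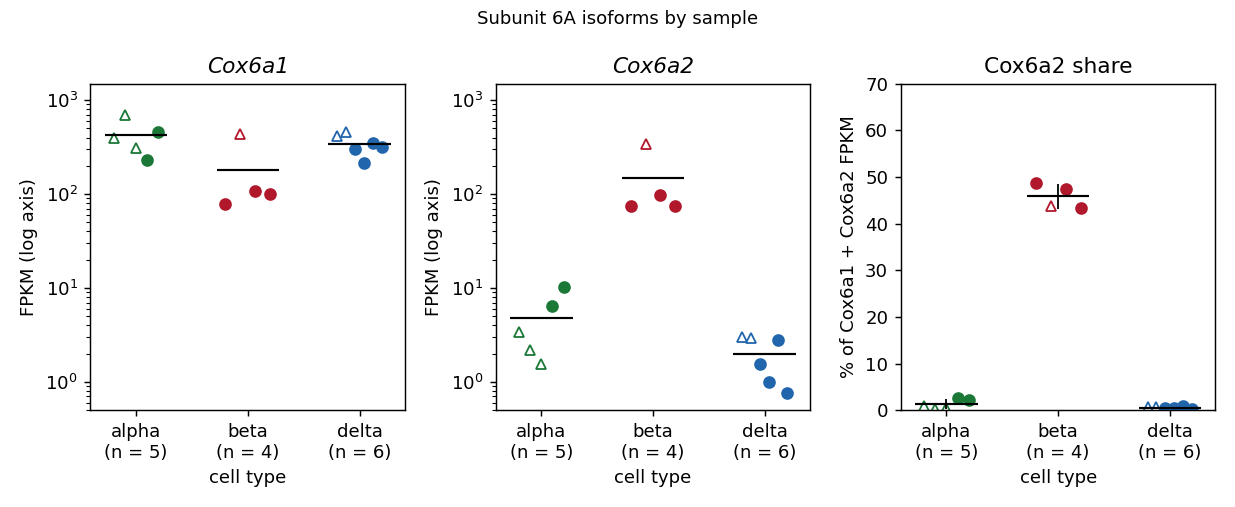
FPKM (log axes) of Cox6a1 and Cox6a2, and the share of Cox6a2 in their sum in percent, in each sample by cell type; points are samples (open triangles: higher ribosomal protein set; filled circles: lower set), horizontal lines are means and vertical bars in the right panel are SDs. The share lies between 43.3% and 48.8% in beta samples and at 2.67% or below in all others.

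The other pairs of isoforms in complex IV gave smaller differences. Cox7a1, the muscle form of subunit 7A, was listed at 0 in 4 of 5 alpha and 3 of 4 beta samples and at 2.64 FPKM in alpha 1 and 8.98 in beta 2. In delta 1 to 6 it was 21.6, 25.2, 8.86, 2.44, 2.21 and 0 FPKM. Delta 1 and 2, which were highest, belong to the higher set, as do alpha 1 and beta 2. Its share of Cox7a1 and Cox7a2 was at most 2.42% in alpha and beta samples and reached 11.8% in delta samples, 5.66 percentage points above alpha (exact permutation p = 0.0260, adjusted 0.208) and 5.44 points above beta cells (exact permutation p = 0.0476, adjusted 0.286). The delta against alpha difference of the gene itself was 2.29 (SE 0.82, adjusted p = 0.129 by limma). With the set as a term of the fit it was 2.87 and called (adjusted p = 0.00612). It was also called without delta 6 (2.82, adjusted p = 0.0412) and with the replicate block (2.82, adjusted p = 0.0286). The block also takes out delta 6, the only sample of its number, so these fits are not separate support. The delta against beta difference was 1.83 (SE 0.88, adjusted p = 0.183 by limma), and it was called with the block (2.60, adjusted p = 0.0348) and without beta 2 (2.66, adjusted p = 0.0437). Shares of Cox4i2, Cox6b2, Cox8b and Ndufa4l2 within their pairs were at most 1.34% in any sample. A 0 in these files can be a failed estimate, since the mitochondrial gene mt-Nd4l was also listed at 0 in 14 of 15 samples. Cox5a, a subunit without isoforms here, had a beta against alpha difference of 0.92 (SE 0.67, adjusted p = 0.441 by limma), with 155 FPKM in beta 2 and 9.15 to 16.9 in the other beta samples.

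In complex V the called genes were lower in beta cells. Atp5g2 (chr15:102662864-102672352, minus strand) is 1 of 3 genes for the same subunit c of the membrane ring. It measured 144, 210, 215, 88.1 and 111 FPKM in alpha 1 to 5, and 19.8, 86.4, 44.0 and 33.5 FPKM in beta 1 to 4. Delta samples had 72.6 to 148 FPKM with a median of 94.5. All beta samples were below all alpha samples, the closest being beta 2 and alpha 4, and beta 2 lay within the delta range. Mean FPKM was 3.34-fold higher in alpha than beta cells (difference -1.83, SE 0.44, adjusted p = 0.0196 by limma) and 2.29-fold higher in delta than beta cells (1.33, SE 0.43, adjusted p = 0.0468 by limma). The first call was lost without beta 1 (adjusted p = 0.0515) or beta 4 (0.0509), with only the compared cell types in the fit (0.074) and with subunit-sum scaling (0.0854). The second was lost with the filter of 5 FPKM (0.0505), with size factors (0.0703), with subunit-sum scaling (0.0622) and when alpha 1, beta 1, 3 or 4, or any of delta 1 to 5 was left out (adjusted p up to 0.129). Atp5g1 and Atp5g3 were not called in the main fit. Without beta 2, Atp5g1 was called lower in beta than alpha cells (-1.52, adjusted p = 0.0445 by limma). The share of Atp5g2 in the 3 genes was 33.7% ± 6.36 in alpha, 24.1% ± 7.25 in beta and 31.9% ± 5.84 in delta cells (mean ± SD). No difference of this share passed (beta against alpha, exact permutation p = 0.0952, adjusted 0.419). Processed pseudogenes are known for several of these genes, and how the counting treated them is not given in the sources used here.

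Atp5d, the delta subunit of the central stalk (chr10:80138632-80145818, plus strand), had 27.2, 91.0, 13.4 and 20.5 FPKM in beta 1 to 4 and 65.8 to 164 FPKM (median 98.3) in delta cells. Beta 2 was the only beta sample within the delta range. Mean FPKM was 2.90-fold higher in delta than beta cells (difference 1.82, SE 0.50, adjusted p = 0.0218 by limma). The call was lost without beta 3 (adjusted p = 0.0642) or beta 4 (0.0694). Against alpha cells the beta level missed the threshold (-1.68, SE 0.52, adjusted p = 0.0602 by limma), and it was called lower with the pseudocount of 0.1 (0.0456), size factors (0.0125), quantile normalization (0.00803), the lower set alone (0.0249) and the replicate block (0.0279), and without alpha 4 (0.0439) or beta 2 (0.00453). Atp5d overlaps Cbarp.

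Atp5sl, named Dmac2 in later annotation and not a subunit of ATP synthase, was low throughout. It had 0.864, 2.40, 0.868 and 0.713 FPKM in beta 1 to 4, 1.71 to 5.28 FPKM in alpha cells and 4.12 to 18.5 FPKM (median 5.15) in delta cells. Beta and delta samples were separate, with a difference of 1.75 (SE 0.40, adjusted p = 0.00763 by limma). It held in every alternative that was run. Against alpha cells the delta difference was 0.86 (adjusted p = 0.248 by limma) and was called with the set as a term (1.07, adjusted p = 0.0432) and with subunit-sum scaling (1.22, adjusted p = 0.0303). Its namesake Atp5s was not called in any comparison.

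The relative make-up of the subunit sum was compared as well. With each sample scaled to its own subunit sum, an alternative added after the data had been seen, 9 members were called in beta against alpha cells (11.5%; 13.3% of all tested genes). Among those higher in beta cells were Cox6a2, Sdha, Cox5a, Ndufa10 and Ndufs3, and lower were Ndufa13, Cox7c and Uqcr11. The share of complex II in the subunit sum was 3.62% ± 1.11 in beta cells, 1.74% ± 0.30 in alpha cells and 2.04% ± 0.20 in delta cells (mean ± SD). That of complex III was 12.5% ± 2.26 in alpha, 9.999% ± 1.94 in beta and 11.7% ± 1.34 in delta cells, a difference between alpha and beta cells above the SD of either. The higher ribosomal protein set held alpha 1 to 3 but only beta 2 of the beta samples. In the lower set alone, the mean sum of complex III was 847 FPKM of 8470 in alpha, 488 of 5292 in beta and 886 of 7924 in delta cells. The part of the set in this share was not tested. The shares of complexes I, IV and V differed between the cell types by less than the SD of the beta samples.

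In the comparisons with beta cells, the protein genes of mitochondrial DNA did not follow the median of their nuclear partners. They supply the other subunits of complexes I, III, IV and V. Of 12 tested, 7 were called higher in beta than alpha cells (2.84% of all tested genes) and none lower, 8 were called lower in delta than beta cells (2.99%) and none higher, and none was called in delta against alpha cells. Their medians were 2.04, -2.13 and -0.26, each opposite in sign to the median of the nuclear subunits except the last. mt-Nd4, a proton-pumping subunit of complex I, had 3665, 14805, 3024 and 11026 FPKM in the 4 beta samples, 302 to 1394 FPKM in alpha cells and 246 to 1185 FPKM in delta cells. Beta samples were all above the others, and the difference from alpha cells was 3.34 (SE 0.67, adjusted p = 0.00542 by limma). Among the genes called in that comparison only mt-Nd5 had a larger difference. Not called there were mt-Nd1, mt-Nd3, mt-Co1, mt-Co2 and mt-Co3. For mt-Co3 the beta samples had 4081, 26957, 1309 and 4368 FPKM and alpha cells 841 to 12525 FPKM. The signs of the first and second medians held under every alternative, and that of delta against alpha cells turned under quantile normalization (0.24) and subunit-sum scaling (0.29). In the lower set alone none of the 12 was called in beta against alpha cells (median 1.66; 10.8% of all tested genes were called), and the number was 4 without alpha 2 or beta 2 and 3 without beta 4. In delta against beta cells 5 were called in the lower set alone and without beta 4, and 12 with the set covariate or subunit-sum scaling. Summed over the 13 genes, the level was 10404 to 42284 FPKM in alpha, 39777 to 212922 in beta and 7019 to 30293 in delta samples, with the highest value in beta 2. Within each cell type this sum, like that of the nuclear subunits, was higher in the higher ribosomal protein set. Its means in the higher and lower set were 37155 and 15462 FPKM in alpha and 27233 and 15635 FPKM in delta cells. Beta 2 had 212922 FPKM beside a mean of 58460 FPKM in the other beta samples. FPKM are relative to the mapped total of a sample, and the part of the mitochondrial level in the lower median of nuclear subunits in beta cells was not tested.

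Genes that build or control the complexes were counted in the same way. Of 33 tested assembly factors, 2 were called lower in beta than alpha cells and higher in delta than beta cells (4.82% and 11.7% of all tested genes), and none in delta against alpha cells. They were Ndufaf3 (28.1 ± 17.8 FPKM in alpha, 6.24 ± 5.18 in beta and 33.6 ± 7.88 in delta cells; beta minus alpha -1.97, adjusted p = 0.026 by limma) and Timmdc1 (21.1 ± 9.96, 6.63 ± 3.89 and 16.1 ± 3.14 FPKM; -1.58, adjusted p = 0.0274 by limma), both of which act in the assembly of complex I. Of 12 tested regulators of mitochondrial genes, the coactivator gene Pprc1 was called higher in delta than alpha cells (1.23, SE 0.32, adjusted p = 0.0258 by limma). In that direction 5.33% of all tested genes were called. Its mean was 2.72 FPKM in alpha and 7.83 FPKM in delta cells. The receptor gene Esrra was called higher in delta than beta cells (1.12, SE 0.34, adjusted p = 0.0338 by limma, beside 11.7% of all tested genes). Esrra was near the floor, at 0.163 to 0.613 FPKM in beta and 1.18 to 4.96 FPKM in delta samples. Each beta value was thus below the pseudocount of 1. Nrf1 and Gabpa, which encode the factors named for the promoter motifs, were not called, at 2.43 to 9.82 and 5.16 to 65.0 FPKM over all samples. None of 11 tested electron carriers and partners of the chain, such as Cycs (cytochrome c), was called in any comparison.

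The differences between cell types were also set against the base composition of the transcripts. Over the 78 members, Pearson's r of the difference with transcript GC content was -0.18 in beta against alpha, 0.27 in delta against alpha and 0.32 in delta against beta cells; over 14000 tested genes with a GENCODE entry it was -0.26, 0.18 and 0.40. Genes are not independent replicates, and these values are descriptions. The transcripts of Ndufa13, Ndufs7, Atp5g2, Atp5d and Atp5sl, which were lower in beta than delta cells, have a GC content of 60.4%, 59.6%, 63.3%, 59.3% and 53.5%, beside a median of 50.2% over the members. Those of Sdha and Cox6a2, which were higher in beta cells, have 48.5% and 52.8%. The part of GC content in these differences was not tested.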

How the data were processed

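RNA of 5 alpha, 4 beta and 6 delta cell samples had been amplified with a NuGEN kit, which does not mark strand, and sequenced as single reads. The authors aligned reads to GRCm38 with TopHat2 (2.0.8 in the submitters' processing notes; the study's methods give a later version) and Cufflinks 2.2.1 gave the deposited FPKM of each gene; the annotation release is not given in the sources used here. The authors compared expression with edgeR, a count method; counts were not used here. Samples were grouped by their titles.

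Genes with a mean above 1 FPKM in at least 1 cell type were tested on log2(FPKM + 1), with a pseudocount of 1, by limma 3.58.1 (R 4.3.3; lmFit, eBayes with trend), all 15 samples in one fit with a mean per cell type and no covariate, two-sided, with Benjamini-Hochberg adjustment over 14405 genes. Isoform shares were compared by two-sided exact permutation tests (SciPy 1.17.1). Python 3.11.15, numpy 2.4.6, pandas 2.3.3 and matplotlib 3.10.9 were used otherwise. The fit was tested on simulated data: for delta against alpha cells, with 200 of 14405 genes changed by 3 on the log2 scale, it recovered 166 (83%) with 11 false calls. The simulated noise was independent between genes, without the shift between samples that the subunit genes share. A change of 3 is also larger than the called differences of all members but Cox6a2. These figures therefore do not show how well the fit finds differences of the members.

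The table holds no read totals. Steps of single reads in the lowest values, which depend on transcript length, gave the depth of 6 samples; in the other 9 the depth is unknown and detection limits were not set. Positions and transcript composition are from GENCODE M21 (GRCm38) and promoters from RefSeq (GRCm38.p6).

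The members and gene lists were chosen with earlier results of these data known. Named are up to 15 called members a comparison, isoform genes, the 5 members with the highest mean, members below the filter and called genes of the companion lists (up to 6 a comparison; all counts are given); Ndufs1, Ndufs3, Ndufa10, Ndufa12, Ndufc1, Cox5a, Uqcr11, Uqcrc1 and those named beside an alternative were added after their values were seen. The values of 1 member are not reported here. Alternatives were no filter and a filter of 5 FPKM, a pseudocount of 0.1, an adjusted p of 0.01, median-ratio size factors, quantile normalization, the ribosomal protein set as a covariate, its lower set alone, only the cell types compared, a replicate block, leaving out each sample and, added after the data were seen, scaling to the subunit sum.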

Additional observations from a re-analysis of the deposited data

Results flagged for a closer look

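Within the groups of 4 to 6 samples, the highest or lowest sample was set against the others by Dixon's ratio for 59 combinations of a value and a cell type, and in 14 of these a sample stood apart, 5 different samples in all; chance alone flags about 1 in 20 groups, or 2.95 here. Beta 2 was that sample in all 8 cases among beta cells. Its summed FPKM of complex I (8205), complex III (3005), complex IV (6757) and all members (25523) were far above those of the other beta samples, as were Cox6a2 (342 FPKM), Ndufa13 (44.5 FPKM), Atp5sl (2.40 FPKM) and the share of Cox7a1 (2.42%). Ndufa13 and Atp5sl were nevertheless below every delta sample there. Among delta samples, delta 2 stood apart by Atp5sl (18.5 FPKM), and delta 5 by the shares of Cox6b2 (1.34%) and Ndufa4l2 (0.482%). Among alpha samples, alpha 1 stood apart by the share of Cox7a1 (1.89%), and alpha 5 by the shares of Cox4i2 (0.0528%) and Cox6b2 (0.286%). The shares of Cox4i2, Cox6b2, Cox7a1 and Ndufa4l2 come from groups in which 2 or more other samples were listed at 0.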

How the results depend on the processing

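No difference of a named member that was called changed its sign in any alternative. The counts of called members were 4 in beta against alpha, 0 in delta against alpha, 7 in delta against beta cells and 7 across the cell types, and they moved with the processing; in the same order, they were 2, 0, 4 and 3 at an adjusted p of 0.01, 7, 0, 7 and 7 with a pseudocount of 0.1, 11, 1, 8 and 14 with median-ratio size factors, 17, 1, 15 and 15 with quantile normalization, 8, 2, 16 and 12 with the ribosomal protein set as a covariate, 12, 1, 17 and 14 in the lower set alone, and 9, 1, 10 and 13 with scaling to the subunit sum. With only the compared cell types in the fit they were 2, 0 and 7 (3.61%, 7.61% and 16.9% of all tested genes). Leaving out 1 sample at a time gave 2 to 29, 0 to 1, 4 to 20 and 3 to 22, in the same order; the highest count came without delta 6 in delta against alpha cells and without beta 2 in the others, and the lowest without beta 4 in all but delta against alpha cells. The same-numbered samples of different cell types did not vary together (mean correlation of their deviations 0.0761, range -0.152 to 0.281 over 13 pairs), and the numbers were not taken to pair the samples, although the pairs of number 2 had the highest values within the 3 pairs of cell types (0.268 to 0.281) and shared islet pools of alpha and beta cells cannot be told from the labels; with a replicate block 14, 1, 12 and 14 members were called (8.52%, 5.77%, 13.9% and 15.3% of all tested genes). The replicate block also takes out delta 6, the only sample of its number. Summed levels by complex moved by less than their wide SDs, but in the lower set alone the means of alpha cells were 2070 FPKM for complex I and 847 FPKM for complex III, below those of delta cells there (2086 and 886), whereas with all samples they were above them (4710 and 2336 against 3113 and 1385). Tests of the isoform shares have few possible p-values at these sample numbers, and that none passed is not read as stability. Over all tested genes the shares called in beta against alpha and delta against beta cells were 3.2% and 7.25% at 0.01, 10.1% and 15.9% with the pseudocount, 14.4% and 18.6% with size factors, 13.7% and 19.1% with quantile normalization (members 21.8% and 19.2%), 9.99% and 20.8% with the covariate, and 13.3% and 13.5% with subunit-sum scaling. The causes of these shifts were not tested. Depth is known for 6 samples only, and 2 to 6 samples a group limit what single genes can show.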
